A study of Mus musculus with 6 samples.

Results

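Cells of dissociated mouse melanomas were chosen by their measured level of 4 genes of the vessel lining, Pecam1, Cdh5, Emcn and Cldn5. A cell entered the gate with at least 2 unique molecular identifiers (UMIs, each 1 counted RNA molecule) summed over the 4 genes, no UMI of the leukocyte genes Ptprc and Tyrobp, and at most 2 UMIs of the fibroblast collagen gene Col1a1. The gate held 2668 of 52390 kept cells, or 5.09%. The label given to these cells was endothelial, and the data went against it for most of them. Of the 2668, 2573 had Cdh5 as the only gate gene with a UMI. Most of 28 other endothelial genes stood in these cells near their level in other cells without leukocyte genes, and 5 had no UMI. A set of 26 gated cells carried the endothelial programme. The 2573 are called Cdh5-only cells here, and the 26 are called core-rich cells.

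The 6 libraries came from YUMMER1.7 tumours, grown from a mouse melanoma line injected under the skin of male C57Bl/6 mice aged 6 to 8 weeks (600000 cells per injection). Exercise replicates 5, 6 and 8 came from mice that ran for 14 days (speed 12 m/min, 45 min daily), and sedentary replicates 1, 2 and 3 from mice that did not run. Whole tumours were digested for 15 minutes at 37 degrees, strained at 100 micrometres and sequenced with 10x Genomics 3′ version 3 chemistry, with no sorting for vessel cells. The tumours of both groups carry the same injected line, and the labels do not say whether a library is 1 animal, so p-values measure the spread between libraries.

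Endothelial cells form the inner wall of blood and lymph vessels. They hold together through VE-cadherin (encoded by Cdh5), PECAM-1 (Pecam1) and the tight junction protein claudin-5 (Cldn5), and many carry the sialomucin endomucin (Emcn) on the surface. Their growth in tumours is driven by vascular endothelial growth factor (VEGF), which signals through the receptor encoded by Kdr, and is shaped by the angiopoietin, Notch and bone morphogenetic protein (BMP) pathways.

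Kept cells numbered 7201 to 10076 per library, and the libraries held 97426009 to 131778565 UMIs. Gated cells were deep, with a median of 26921 UMIs, against 14000 in the 30061 other cells without Ptprc or Tyrobp UMIs and with Col1a1 within the limit. Scrublet marked 12 of the 2668 gated cells as doublets. Among kept barcodes, 309 occurred in more than 1 library; 25 gated cells had such a barcode, and no core-rich cell did.

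The gate rested on 1 gene. Cdh5 (chr8:104101625-104144511, GRCm38, plus strand) gave 9234 UMIs and was found in 2656 gated cells. Pecam1 (chr11:106654217-106750628, minus strand) gave 223 UMIs in 87 cells. Emcn (chr3:137341067-137432185, plus strand) gave 76 UMIs in 26 cells, and Cldn5 (chr16:18776847-18778262, plus strand) gave 98 UMIs in 21 cells. All 4 genes were detected together in 9 cells, and Pecam1 with Cdh5 but neither other gene in 51. At the threshold, 1182 gated cells had a gate sum of exactly 2, and 2750 cells that met the other limits had a sum of 1. A further 619 cells reached the sum but had Ptprc or Tyrobp UMIs, and 28 reached it with too much Col1a1.

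A count of 28 core endothelial genes that the gate did not use varied widely among the gated cells. Most gated cells had UMIs of 1 to 5 of these genes, as did other cells without leukocyte genes. The numbers of gated cells fell to 45 at 6 core genes, 10 at 7, 3 at 8 and 1 at 9, and a thin tail then ran up to 25. The 26 cells with at least 9 core genes were set apart after the counts had been seen, at a limit within the thin tail and not at a gap, so their core genes are described without a test. Outside the gate, 3 kept cells reached 9 core genes, and all 3 had Ptprc or Tyrobp UMIs. A core-rich cell had a median of 17 core genes and 5805 UMIs, against 3 core genes and 27200 UMIs in a Cdh5-only cell, so the core-rich cells had the higher count at the lower depth.

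**Figure D1:**
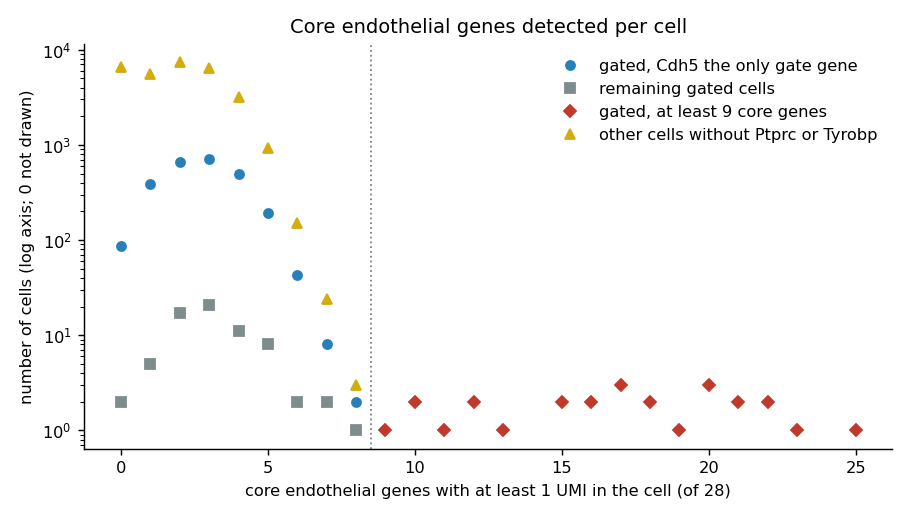
Number of cells (log axis) by the number of core endothelial genes with a UMI, for Cdh5-only, remaining and core-rich gated cells and for other cells without Ptprc or Tyrobp UMIs; the dotted line marks the limit of 9 genes. The 2573 Cdh5-only cells and the 30061 other cells both reach at most 8 genes. Cdh5-only cells are most numerous at 3 genes (710 cells, with 86 at 0) and the other cells at 2 (7359 cells, with 6519 at 0). Their median depths were 27200 and 14000 UMIs. The 26 core-rich cells form a thin tail that reaches 25 genes.

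In the core-rich cells, Pecam1 and Egfl7, a gene for a protein secreted by endothelium, were detected in all 26 cells. Pecam1 stood at 904.1 counts per 1000000 UMIs (CPM), against 0.445 CPM in other cells without leukocyte genes. Kdr was found in 23 of the 26 cells at 657.5 CPM, against 1 UMI in all 2573 Cdh5-only cells. Ptprb, the phosphatase of the Tie receptors and VE-cadherin, was found in 21 core-rich cells at 651.2 CPM, and Esam, a junctional adhesion molecule, in 20 at 619.6 CPM. In Cdh5-only cells Ptprb had 0 UMIs, where 3 UMIs would be 0.0391 CPM, and Esam had 10. Every one of the 28 core genes had a UMI in the core-rich cells, whereas 5 of 28 had none in Cdh5-only cells. Those 5 were Ptprb, the guidance receptor gene Robo4 and the transcription factor genes Sox17, Sox18 and Erg, and 6 others had between 1 and 3 UMIs there.

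The promoters of Kdr, Emcn and Cldn5 are shown because these genes were detected in 16 to 23 of the core-rich cells and Kdr gave 1 UMI in Cdh5-only cells, which by definition lack the other pair. Each line gives the 250 bases before the RefSeq start on GRCm38, 5′ to 3′ on the strand of the gene. Capitals mark GGAA on either strand (so GGAA or TTCC), the core letters bound by ETS factors such as ERG. At least 1 match was present in 93.4% of 32851 RefSeq promoter stretches of this length, with a median of 3, and 33.4% held 4 or more.
Kdr, chr5:75978456-75978705, minus strand, 4 matches: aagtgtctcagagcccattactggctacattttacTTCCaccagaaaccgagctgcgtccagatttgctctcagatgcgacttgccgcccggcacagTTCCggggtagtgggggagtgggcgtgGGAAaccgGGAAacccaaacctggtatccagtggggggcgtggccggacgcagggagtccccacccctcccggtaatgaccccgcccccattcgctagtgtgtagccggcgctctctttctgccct
Emcn, chr3:137340828-137341077, plus strand, 4 matches: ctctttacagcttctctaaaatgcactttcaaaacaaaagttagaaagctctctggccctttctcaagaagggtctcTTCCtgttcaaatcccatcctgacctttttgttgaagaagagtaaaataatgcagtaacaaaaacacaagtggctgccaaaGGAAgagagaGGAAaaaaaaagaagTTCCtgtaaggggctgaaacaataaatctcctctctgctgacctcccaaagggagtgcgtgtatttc
Cldn5, chr16:18776597-18776846, plus strand, 0 matches: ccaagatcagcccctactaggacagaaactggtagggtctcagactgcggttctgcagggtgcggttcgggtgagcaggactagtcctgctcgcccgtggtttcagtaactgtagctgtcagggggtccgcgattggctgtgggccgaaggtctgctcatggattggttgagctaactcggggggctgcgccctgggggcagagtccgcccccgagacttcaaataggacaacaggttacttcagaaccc
The Kdr and Emcn stretches each held 4 matches and the Cldn5 stretch held none, which describes these windows only; 6.55% of all promoter stretches held none.

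**Figure D2:**
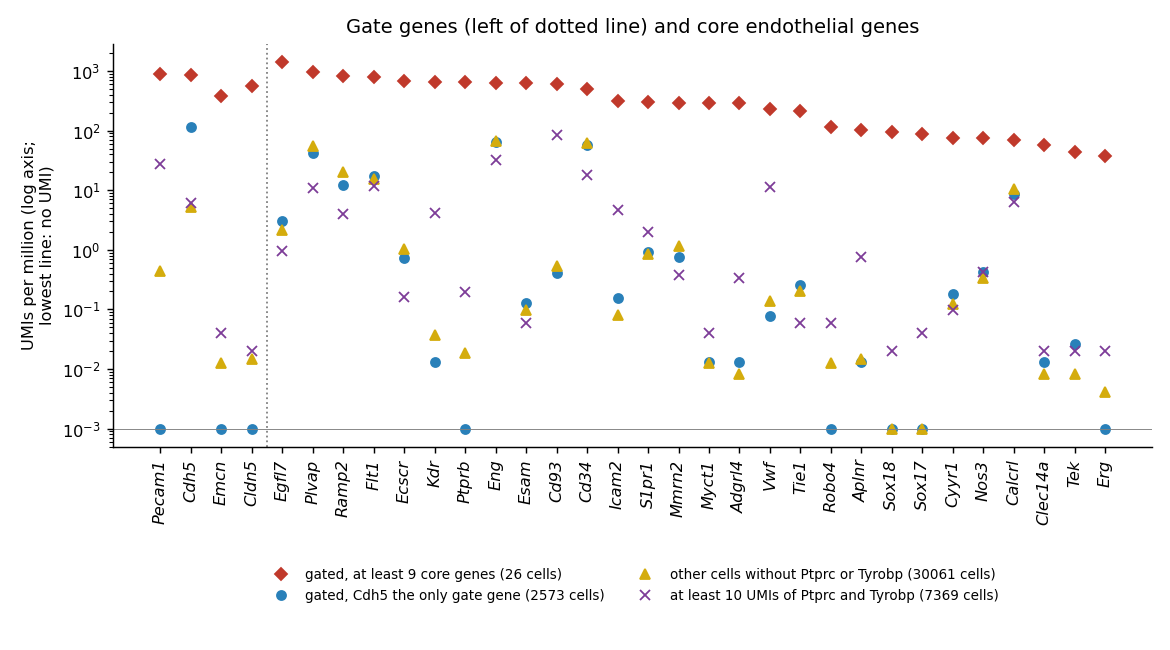
Pooled level (CPM, log axis; symbols on the lowest line had no UMI) of the 4 gate genes and 28 core endothelial genes in core-rich cells, Cdh5-only cells, other cells without Ptprc or Tyrobp UMIs and cells with at least 10 UMIs of Ptprc and Tyrobp. Core-rich cells, which were chosen by their count of the core genes, lie highest for every gene, from 37.9 CPM for Erg to 1397 CPM for Egfl7. Cdh5-only cells and other cells without leukocyte genes lie close together for most genes.

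Receptors of VEGF were found in most core-rich cells, whereas the ligand gene Vegfa was nearly absent. Kdr, Flt1, Tie1 and Tek are among the core genes that chose these cells, so their detection was partly set by that choice. Flt1, the decoy VEGF receptor, was found in 20 of 26 cells at 796.6 CPM, and the co-receptor gene Nrp1 in 17 at 259.2 CPM. Vegfa, the main ligand, had 1 UMI in the core-rich cells, against 42.7 CPM in Cdh5-only cells and 52.2 CPM in other cells without leukocyte genes. In the angiopoietin system, Tie1 was found in 17 core-rich cells and the receptor gene Tek in 4, all in 1 library. Angpt2, the ligand that loosens vessel walls, was found in 12 cells at 309.8 CPM. Of the Notch genes, the ligand gene Dll4 was found in 12 cells, the receptor gene Notch4 in 11 and the target gene Hey1 in 5. The BMP targets Id1 and Id3 were found in 18 and 19 cells, at 562.7 and 518.5 CPM.

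Genes of the vascular matrix stood far higher in the core-rich cells than in Cdh5-only cells. Sparc, a collagen-binding matrix protein gene, reached 5614 CPM there, against 984.5 CPM in Cdh5-only cells. Igfbp7, a secreted protein of tumour vessels, reached 5020 CPM in 25 of 26 cells, against 0.651 CPM in Cdh5-only cells. The type IV collagen genes Col4a1 and Col4a2 stood at 3699 and 2067 CPM, against 94.0 and 39.7 CPM in Cdh5-only cells. Gpihbp1, which anchors lipoprotein lipase to the capillary wall, was found in 17 core-rich cells at 923.1 CPM and in no Cdh5-only cell. Plvap, the diaphragm protein of fenestrated vessels, was found in 23 core-rich cells at 961.0 CPM, against 41.7 CPM in Cdh5-only cells. Plvap is also among the core genes that chose the core-rich cells.

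Markers of several vessel types were present, often in the same cell. With at least 3 genes of a list taken as present, 23 of the 26 core-rich cells had the capillary list, 21 the tip and angiogenic list, 20 the arterial list, 15 the venous list and 4 the lymphatic list. The lists overlap in some genes and differ in length, so these counts do not sort cells into types. Core genes that chose the cells are also in the capillary (Kdr), arterial (Sox17) and venous (Vwf, Aplnr) lists. The capillary and the tip lists were both present in 20 cells. The gap junction gene Gja5, an arterial marker, was confined among core-rich cells to 4, in exercise replicates 5 and 6, with 4 to 12 UMIs each. The tip cell gene Esm1 was found in 10 cells, and Apln, another tip cell gene, in 4, with 52 of its 69 UMIs in a single cell of sedentary replicate 1. The lymphatic regulator gene Prox1 was found in 3 cells of exercise replicates 5 and 6, with 5, 6 and 11 UMIs, and another cell, of exercise replicate 6, had 7 UMIs of the lymphatic gene Mmrn1 and 3 of the VEGF-C receptor gene Flt4. Genes of high endothelial venules were scarce: Glycam1, Madcam1 and Ackr1 had 0 UMIs in the core-rich cells, where 3 UMIs would be 19.0 CPM, so low levels could not be detected.

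**Figure D3:**
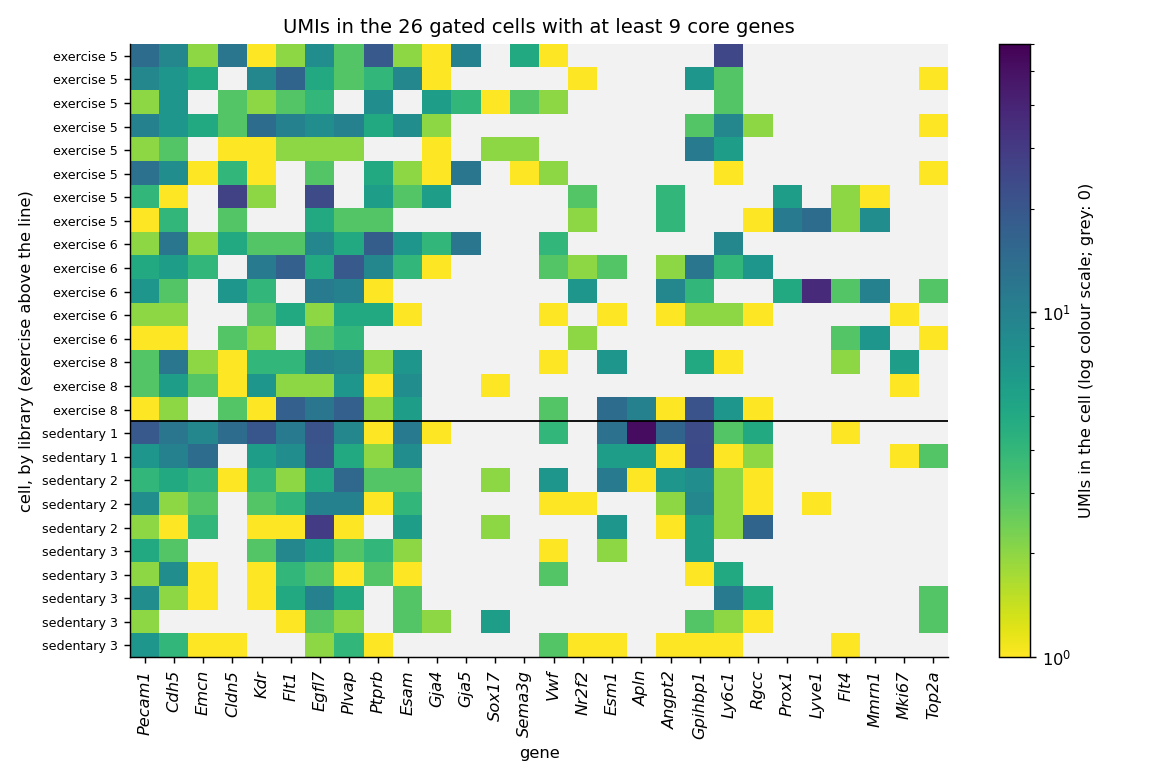
UMIs of 28 vessel and division genes (columns) in each of the 26 core-rich cells (rows, exercise above the line, sedentary below; log colour scale, grey for 0). Pecam1 and Egfl7 are present in all 26 cells; Gja5, Prox1 and Mmrn1 appear in single cells of exercise replicates 5 and 6.

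Core-rich cells also carried genes through which vessels address leukocytes. Cxcl9, a chemokine gene induced by interferon-gamma, was found in 13 of 26 cells at 2017 CPM, against 30.0 CPM in Cdh5-only cells. The MHC class I genes H2-K1 and H2-D1 stood at 2618 and 2428 CPM, against 1328 and 1144 CPM in Cdh5-only cells. Icam2, which is among the core genes that chose the cells, was found in 19 core-rich cells at 309.8 CPM, and Vcam1 in 11 at 240.3 CPM. The activated-endothelium selectin gene Sele had 0 UMIs there, where 3 UMIs would be 19.0 CPM. Sele stood at 17.6 CPM in Cdh5-only cells, so this 0 shows no difference. All 20 listed division genes had a UMI in the core-rich cells, and 19 of the 26 cells had at least 2 UMIs of the list. The list summed to 1467 CPM there, against 3222 CPM in Cdh5-only cells and 2374 CPM in other cells without leukocyte genes. It was uneven among the cells: the highest cell had 14 of the genes with 57 UMIs, and others had none. Top2a, a topoisomerase gene of dividing cells, was found in 8 cells and the division marker gene Mki67 in 4.

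Marker lists of other lineages differed in level in the core-rich cells. The 12 haematopoietic marker genes gave 10 UMIs in all 26 cells together. This was 63.2 CPM, against 63.9 CPM in other cells without leukocyte genes. Of the 12 pericyte and smooth muscle genes, 8 had no UMI, and 44 UMIs of Acta2 came from 2 cells; the list summed to 354.1 CPM, against 54.3 CPM in other cells without leukocyte genes. The 12 fibroblast genes gave 98 UMIs, with 5 at 0. The 6 mast cell genes gave 15 UMIs, of which 13 were of the receptor gene Kit in 6 cells. The 10 genes listed as markers of the main non-immune population summed to 474.2 CPM in core-rich cells, with at least 2 UMIs in 17 of 26, against 442.9 CPM in other cells without leukocyte genes; 39 of the 75 UMIs were of Nes, an intermediate filament gene, and 19 of Tinagl1, a matrix protein gene. The platelet list gave 3 UMIs. The erythroid, epithelial and Schwann cell lists had 0 UMIs in the core-rich cells, where 3 UMIs would be 19.0 CPM. In other cells without leukocyte genes these lists summed to 8.26, 0.491 and 3.31 CPM, so a similar level could not be detected. The part of these markers in the other values was not tested.

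The core-rich cells numbered 8, 5 and 3 in exercise replicates 5, 6 and 8, and 2, 3 and 5 in sedentary replicates 1, 2 and 3. Pooled over libraries, they were 16 of 941 gated exercise cells (1.70%) and 10 of 1727 gated sedentary cells (0.579%), denominators mostly of Cdh5-only cells. As shares of kept cells they were 0.0978% (95% exact binomial interval 0.0422 to 0.193), 0.0527% (0.0171 to 0.123) and 0.0298% (0.00614 to 0.0870) in exercise replicates, and 0.0252% (0.00306 to 0.0911), 0.0417% (0.00859 to 0.122) and 0.0525% (0.0171 to 0.123) in sedentary replicates. The groups overlapped, and the intervals, which cover counting error only, were wide. In dissociated tissue, fewer vessel cells in the tumour and fewer released by digestion cannot be told apart.

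The 2573 Cdh5-only cells made up 96.4% of the gate and resembled other cells without leukocyte genes in most core genes. Eng, a TGF-beta co-receptor gene, stood at 64.7 CPM in Cdh5-only cells and 68.0 CPM in the other cells, and Cd34 at 57.1 and 62.1 CPM. Plvap stood at 41.7 CPM in Cdh5-only cells and 55.4 CPM in the other cells, and Flt1 at 17.4 and 15.2 CPM. In all, 12 of the 28 core genes were higher in Cdh5-only cells, 14 were lower and 2 were equal at 0. The population markers Cspg4, a proteoglycan gene, and Cdh2, the N-cadherin gene, stood at 39.4 and 54.0 CPM in Cdh5-only cells, against 48.0 and 51.2 CPM in the other cells. The 10 genes listed as markers of the main non-immune population summed to 341.4 CPM in Cdh5-only cells, against 442.9 CPM in the other cells. Each of the 10 had UMIs in Cdh5-only cells.

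Cdh5 itself was not confined to the gate. Over all cells without leukocyte genes and with Col1a1 within the limit, gated or not, Cdh5 stood at 10.4, 12.6 and 20.1 CPM in exercise replicates 5, 6 and 8, and at 37.5, 18.8 and 24.1 CPM in sedentary replicates 1, 2 and 3. In cells with at least 10 UMIs of Ptprc and Tyrobp, which should lack the gene, it stood at 3.22, 2.68 and 10.3 CPM in exercise and at 9.42, 4.46 and 9.11 CPM in sedentary replicates. These cells had a median of 4629 to 5966 UMIs per library, and 1.17% to 4.60% of them had a Cdh5 UMI, against 8.92% to 25.4% of cells without leukocyte genes at a median of 13067 to 19064 UMIs. In each of the 6 libraries the Cdh5 level was lower in cells rich in leukocyte genes.

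After Cdh5, the genes that led the gated cells over all other kept cells were not core endothelial genes. The ranking took only genes with UMIs in at least 20% of gated cells, which shuts out genes confined to the core-rich cells. The gate chose on Cdh5 and against leukocytes, and by asking for 2 UMIs it favoured deep cells, so these ratios are a description. Fabp4, a fatty acid carrier of capillaries and fat cells, stood at 57.0 CPM in gated cells, against 21.5 CPM in all other kept cells, a ratio of 2.65. The growth cone gene Gap43 had a ratio of 2.46, the neurofilament genes Nefl and Nefm 2.18 and 1.96, and Chrna1, a muscle acetylcholine receptor subunit gene, 2.16. Ramp3, a receptor-modifying protein gene of the calcitonin family, and the chemokine receptor gene Cxcr3 followed at 1.88 each. Nefl stood at 226.1 CPM in Cdh5-only cells and had 0 UMIs in core-rich cells, and Ramp3, Cxcr3 and Sele were likewise at 0 in core-rich cells. For Sele this 0 shows no difference. It stood at 17.6 CPM in Cdh5-only cells, below the 19.0 CPM that 3 UMIs would be in core-rich cells. Of the 25 leading genes, 24, Cdh5 among them, were higher in gated than in other cells without leukocyte genes in all 6 libraries. Sele was higher in 5. The genes were picked by their pooled ratio in these same libraries, so the counts are a description only.

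**Figure D4:**
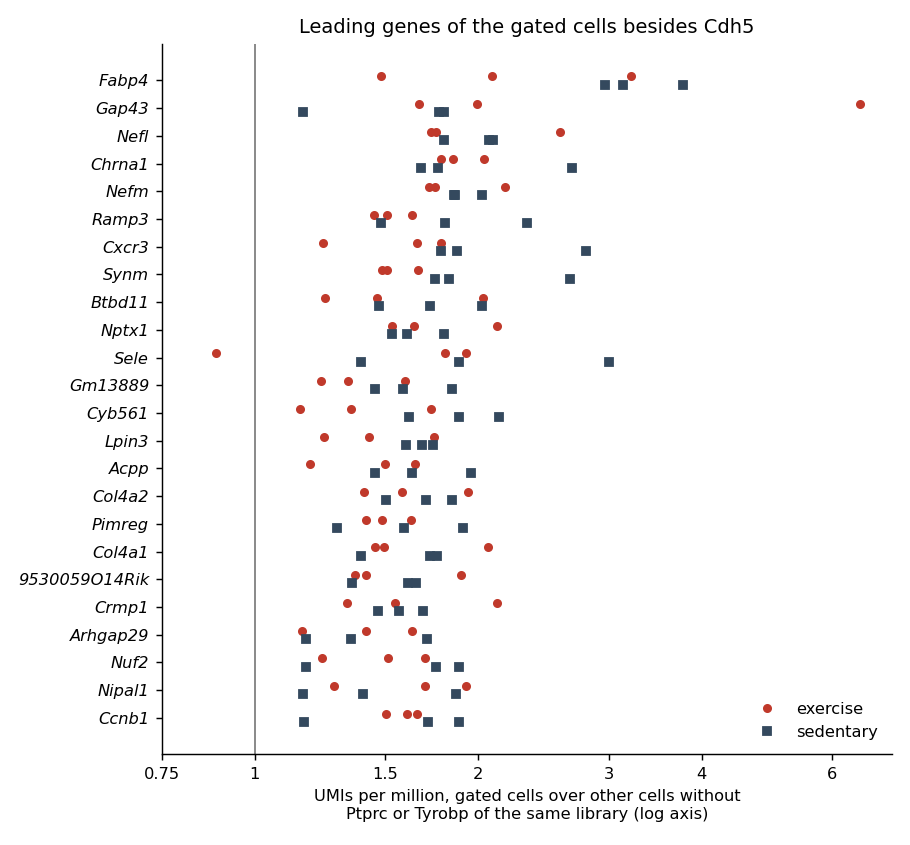
Ratio of CPM in gated cells over other cells without Ptprc or Tyrobp UMIs in each library (log axis; circles exercise, squares sedentary) for the 24 leading genes other than Cdh5. All points lie above 1 except Sele in exercise replicate 5, which had 6.26 CPM in gated cells and 7.05 CPM in the other cells. The genes were picked by their pooled ratio in the same libraries.

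Division genes were higher in the Cdh5-only cells, while genes of the interferon and MHC class I lists were mostly lower. All 20 listed division genes had a higher level in Cdh5-only cells than in other cells without leukocyte genes. Top2a stood at 476.1 CPM in Cdh5-only cells and 337.9 CPM in the other cells, and Mki67 at 171.0 and 118.7 CPM. Of 22 interferon-induced genes 1 was higher in Cdh5-only cells, Ly6e at 898.1 CPM against 787.2 CPM, and of 14 MHC class I genes none was. Ifitm3, an antiviral membrane protein gene, stood at 813.8 CPM in Cdh5-only cells and 1081 CPM in the other cells. The cells were chosen from the same counts, so these values are given without a test. The Cdh5-only cells also had a higher median depth of 27200 UMIs, against 14000, and the part of depth in these differences was not tested.

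Among the genes at least 20% of gated cells carried, the lowest ratios to all other kept cells were led by genes of leukocytes, which the gate kept out: Srgn, a granule proteoglycan gene, stood at 12.9 CPM in gated cells, against 126.0 CPM in all other kept cells. Edil3, a matrix gene for integrin binding, was low also against cells without leukocyte genes, at 11.1 CPM in gated cells and 30.2 CPM in those cells. It was lower in the gated cells of all 6 libraries. The genes of highest level in gated cells were led by S100a6 at 17351 CPM, Malat1 at 15311 CPM and Fth1 at 10539 CPM, and they also held Mt1, Tpt1, Lgals1, Fau, Eef1a1, Vim and Spp1.

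The remaining 69 gated cells had another gate gene beside or in place of Cdh5, but fewer than 9 core genes. Pecam1 was found in 61 of them and Cdh5 in 58. At least 2 UMIs of the pericyte and smooth muscle list were found in 22 of the 69 (31.9%) and of the lymphatic list in 37 (53.6%). The shares were 29.2% and 63.0% in Cdh5-only cells, and 20.6% and 32.8% in other cells without leukocyte genes. Median depth was 23296 UMIs in the 69 cells, 27200 in Cdh5-only cells and 14000 in the other cells. The part of depth in these shares was not tested. The platelet-derived growth factor receptor gene Pdgfrb gave 85 UMIs in 34 cells and the podoplanin gene Pdpn 237 in 44 cells; both were also found in other cells without leukocyte genes, at 44.6 and 102.2 CPM. Of rarer genes, all 28 UMIs of the pericyte gene Higd1b and all 14 of Kcnj8 came from 1 cell each, and 40 UMIs of Rgs5 came from 3. Mmrn1 gave 14 UMIs in 2 cells and Flt4 gave 6 in 3. Egfl7 was found in 14 of the 69, at 18.1 CPM, against 1397 CPM in core-rich cells.

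Exercise was then compared with no exercise over libraries. Gated cells were 2.03%, 3.22% and 4.65% of kept cells in exercise replicates 5, 6 and 8, against 10.2%, 4.46% and 6.25% in sedentary replicates 1, 2 and 3. The means were 3.30% ± 1.31 for exercise and 6.98% ± 2.96 for sedentary libraries (SD, n = 3 each). The groups overlapped through exercise replicate 8 and sedentary replicate 2, and the difference of -3.68 percentage points did not pass (two-sided exact permutation test, p = 0.2; the smallest p that 3 against 3 allows is 0.1). Sedentary replicate 1 held 811 of the 1727 gated sedentary cells, and without it the difference was -2.05 points. With UMIs of at least 2 of the 4 gate genes required, the difference was -0.03 points (exact permutation p = 0.6).

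Of cells without Ptprc or Tyrobp UMIs, the gate held 4.35%, 4.63% and 6.80% in exercise and 15.5%, 8.87% and 8.29% in sedentary replicates. On this denominator the groups did not overlap, with means of 5.26% ± 1.34 for exercise and 10.9% ± 3.99 for sedentary libraries (SD, n = 3 each; exact permutation p = 0.1, the smallest possible). A Cdh5 UMI was found in 8.92%, 10.7% and 15.5% of these cells with Col1a1 within the limit in exercise replicates, and in 25.4%, 16.2% and 17.6% in sedentary replicates, again without overlap (exact permutation p = 0.1). The Cdh5 level in CPM over the same cells, given above, overlapped between groups (exact permutation p = 0.2). With each cell thinned to 10000 UMIs and shallower cells left out, the gated share was 1.15%, 2.67% and 4.09% in exercise and 7.87%, 3.44% and 4.99% in sedentary replicates, which overlapped; the same cells unthinned gave 6.11%, 6.33% and 9.44% in exercise and 20.998%, 12.5% and 12.5% in sedentary replicates. The thinning left out 1211 to 2247 cells of an exercise library and 1082 to 2469 of a sedentary one.

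**Figure D5:**
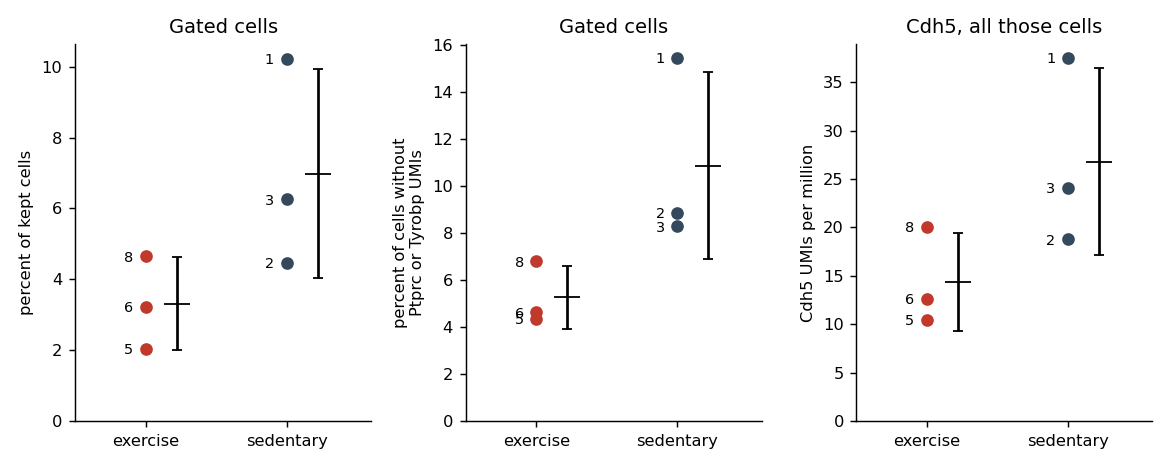
Gated cells as percent of kept cells (left) and of cells without Ptprc or Tyrobp UMIs (middle), and Cdh5 CPM in cells without those UMIs and with Col1a1 within the limit (right), for each library, numbered by replicate, with mean and SD (bars). Exercise libraries lie lower on average in each panel, and in the middle panel the groups do not overlap.

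Gated cells had a median of 22156 to 29981.5 UMIs in exercise libraries and 23845 to 34553 in sedentary libraries, with a difference of -3739.5 in the group means (exact permutation p = 0.4). Leukocyte-gene cells were 53.4%, 30.4% and 31.6% of kept cells in exercise and 33.9%, 49.7% and 24.5% in sedentary replicates, and these cells are part of the first denominator only.

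No gene passed between exercise and sedentary libraries in the gated cells. Of 11504 genes tested on UMIs summed per library, 0 passed an adjusted p below 0.05 by edgeR's quasi-likelihood test with Benjamini-Hochberg adjustment, 0% in either direction. An unadjusted p below 0.05 was reached by 238 genes (2.07%; 0.869% higher and 1.2% lower in exercise), and DESeq2 and limma-voom called 0 genes as well, with 200 and 218 at an unadjusted p below 0.05. The libraries of the groups did not overlap for 6.6% of the genes tested (3% higher and 3.6% lower in exercise).

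The 10 genes of smallest p with a higher level in exercise were led by Epas1, which encodes a hypoxia-inducible factor subunit. Epas1 stood at 7.84, 4.96 and 5.14 normalised CPM in exercise and 1.99, 2.40 and 2.52 in sedentary replicates. Its log2 fold change was 1.36 (SE 0.243, edgeR adjusted p = 0.99990), and the groups did not overlap. Without the core-rich cells the log2 fold change of Epas1 was 0.80. Kdr stood at 5.60, 2.85 and 1.35 normalised CPM in exercise and 0.959, 0.663 and 0.332 in sedentary replicates (log2 fold change 2.13, SE 0.566). Without the core-rich cells Kdr, Gimap6 and Sept4 had too few UMIs to be tested. Slc9a3r2 had a log2 fold change of 1.37 with and 0.55 without them, and Col4a2 0.36 with and 0.19 without them. The others of the 10 were Tpsb2, 2010111I01Rik, Gpx1 and Csf2ra. A gene low in sedentary libraries could pass the filter on low counts through exercise libraries alone. Mean normalised CPM in sedentary libraries was 0.390 for Tpsb2, 0.437 for Gimap6, 0.503 for Csf2ra, 0.411 for Sept4 and 0.651 for Kdr. Gpx1, a glutathione peroxidase gene, stood at 507.5, 518.7 and 554.0 normalised CPM in exercise and 406.4, 410.7 and 448.0 in sedentary replicates, a log2 fold change of 0.32 that was also 0.32 without the core-rich cells.

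The 10 genes of smallest p with a lower level in exercise were Unc13c, Ulbp1, Qdpr, Zfp36l1, S100a9, Lpar4, Arhgap24, Gpr85, Col3a1 and Rhox5. S100a9 and Gpr85, with exercise means of 0.247 and 0.440 normalised CPM, could pass the filter on low counts through sedentary libraries alone. Ulbp1, a ligand gene for the natural killer receptor NKG2D, stood at 14.7, 9.68 and 11.6 normalised CPM in exercise and 21.9, 19.7 and 19.0 in sedentary replicates (log2 fold change -0.77, SE 0.161, edgeR adjusted p = 0.99990). The fibrillar collagen gene Col3a1 stood at 544.4, 708.6 and 700.8 in exercise and 846.4, 853.0 and 887.5 in sedentary replicates, with a log2 fold change of -0.40. The 12 fibroblast marker genes, Col3a1 among them, summed to 2111 to 2616 CPM in gated exercise cells and 2779 to 2909 CPM in gated sedentary cells, none being at 0, and their part in the other values was not tested. The neutrophil gene S100a9 stood at 0.560, 0 and 0.180 in exercise and 1.40, 1.91 and 0.929 in sedentary replicates. The 12 haematopoietic marker genes summed to 31.1 to 37.0 CPM in gated exercise cells and 35.8 to 144.3 CPM in gated sedentary cells, none of the 12 being at 0 in the gated cells, and their part in these values was not tested. The 6 mast cell marker genes, among them Tpsb2, summed to 3.22 to 8.80 CPM in exercise and 3.04 to 4.64 CPM in sedentary libraries.

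Over the gene lists, 0 genes passed in any of the 25 lists, beside 0% of all genes tested. Over all 11504 genes, 51.2% had a positive log2 fold change, with a median of 0.00. Of the 28 core endothelial genes 13 were tested, 11 of them with a positive value and a median of 0.72. A gene low in 1 group could pass the filter on low counts through the other group alone, so this count is a description only. Without the core-rich cells 5 of the 7 genes still tested were positive, and the median was 0.14. With all gated cells, the median was 0.24 without exercise replicate 5, 1.28 without exercise replicate 8 and 1.14 without sedentary replicate 2. The 14 MHC class I genes were all positive, with a median of 0.22, and none had groups that did not overlap. That median was 0.12 without exercise replicate 6, 0.09 without sedentary replicate 1 and 0.41 without sedentary replicate 2. H2-K1 stood at 1309, 1649 and 1611 normalised CPM in exercise and 937.3, 1588 and 1468 in sedentary replicates, which overlapped. The 5 MHC class II genes tested were positive, with a median of 0.33; H2-Ab1 stood at 6.91, 5.46 and 6.86 in exercise and 4.28, 4.81 and 3.45 in sedentary replicates, while cells rich in leukocyte genes held 3440 CPM of it. Of 20 division genes 17 were positive, with a median of 0.11, which was 0.01 without exercise replicate 6, 0.24 without exercise replicate 8, 0.20 without sedentary replicate 1 and 0.06 without sedentary replicate 2.

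Immediate early, adhesion and hypoxia genes had mostly negative values. Of 19 immediate early genes, which digestion at 37 degrees can raise, 17 were negative and 2 positive, with a median of -0.27, which was -0.17 without exercise replicate 5, -0.16 without exercise replicate 6 and -0.17 without sedentary replicate 2. Junb stood at 56.4, 59.6 and 65.7 normalised CPM in exercise and 64.5, 79.3 and 75.3 in sedentary replicates. Of 13 leukocyte adhesion and chemokine genes 11 were negative, with a median of -0.32, which was -0.21 without exercise replicate 5 and turned to 0.04 without sedentary replicate 2. Among them, the neutrophil chemokine gene Cxcl1 stood at 11.2, 2.85 and 7.22 in exercise and 14.8, 16.5 and 10.4 in sedentary replicates. Of 20 hypoxia genes 17 were negative, with a median of -0.13, and each had groups that overlapped. That median was -0.36 without exercise replicate 5, -0.27 without sedentary replicate 1 and -0.08 without sedentary replicate 3, and it turned to 0.03 without exercise replicate 6. The medians of the remaining lists were 0.01 for the VEGF genes, 0.02 for the angiopoietin genes, 0.04 for Notch, 0.06 for BMP, 0.00 for tip cells, 0.12 for arterial, -0.05 for venous, 0.10 for capillary, 0.16 for lymphatic and -0.40 for high endothelial venule genes, the last 2 resting on 2 genes and 1 gene. They were -0.07 for junctions, 0.09 for flow, -0.02 for basement membrane, -0.07 for lipid and caveolae, 0.01 for clotting, 0.07 for interferon, -0.09 for immune regulators and -0.02 for heat shock genes. Leaving out 1 library turned the sign of each of these remaining medians other than those of the capillary and lipid lists; the angiopoietin, lymphatic and high endothelial venule lists were not recomputed. The range was -0.22 to 0.35 for interferon, -0.25 to 0.14 for flow, -0.03 to 0.54 for arterial and -0.16 to 0.22 for venous genes.

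In whole tumours, summed over all kept cells, vessel genes gave no call either. Of 15509 genes tested, 0 passed edgeR's adjusted p, 413 had an unadjusted p below 0.05 (2.66%; 0.98% higher and 1.68% lower in exercise), and DESeq2 called 23. The libraries of the groups did not overlap for 6.81% (3.02% higher and 3.78% lower in exercise). In such sums, fewer cells of a type and less RNA per cell cannot be told apart. Cdh5 stood at 8.63, 11.9 and 19.1 normalised CPM in exercise and 34.0, 16.4 and 24.0 in sedentary replicates, which overlapped (log2 fold change -0.91, SE 0.354, edgeR adjusted p = 0.99945). Pecam1 stood at 5.35, 2.77 and 2.66 in exercise and 2.28, 5.20 and 2.84 in sedentary replicates, with a log2 fold change of 0.06 (SE 0.397) that turned negative without exercise replicate 5 (-0.34), sedentary replicate 1 (-0.16) or sedentary replicate 3 (-0.06), and Kdr had -0.01 (SE 0.412). Lyve1, a hyaluronan receptor of lymphatic vessels and some macrophages, stood at 0.651, 0.374 and 0.227 in exercise and 0.0626, 0.188 and 0.119 in sedentary replicates (log2 fold change 1.76, edgeR adjusted p = 0.99945). Ptprb had 1.81 and Cldn5 1.88, both with edgeR adjusted p = 0.99945. Both were low, with means of 0.342 and 0.294 normalised CPM in exercise and 0.0966 and 0.0763 in sedentary libraries. Emcn, the remaining gate gene, had -0.44 (SE 0.535). Values of other core genes lay in both directions, such as 1.03 for Adgrl4 and -0.53 for Tie1. None of these differences passed.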

How the data were processed

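Single-cell RNA was measured in 6 libraries of whole melanoma dissociations. The authors deposited raw UMI counts per gene and barcode, with no normalised values; Cell Ranger 6.1.2 and the build mm10 are named per the submitters' processing notes, and software version 3.1.0 per the file headers. Free RNA was not corrected, and empty droplets were not used here. Of 58351 barcodes, 52390 passed the limits of 300 genes, 500 UMIs and 20% mitochondrial UMIs and were gated as stated. The limit of 9 core genes and the class with at least 10 UMIs of Ptprc and Tyrobp were chosen after seeing the data. CPM are counts per 1000000 UMIs, pooled over cells; those called normalised are TMM-scaled. UMIs were summed per library, filtered with filterByExpr, scaled by TMM and tested with edgeR 4.0.16 (quasi-likelihood, Benjamini-Hochberg); DESeq2 1.42.0, limma 3.58.1 (voom), other gates, other filters and each library left out were alternatives. The scripts' tests were tested on simulated data. The labels do not say whether replicates are separate animals. Shares were compared with exact permutation tests. Scrublet was run within scanpy 1.11.5. Of 31053 genes, 30934 were found by identifier in GENCODE M21 (GRCm38), which gave positions; promoters came from RefSeq. The symbol Ccl21a has several identifiers and was left out of the lists. Genes were named as the gate genes, list genes, the 25 of largest ratio over other cells, the 10 of highest level, and the 10 of smallest p in each direction. Members and lists were chosen with earlier results of these data known, so no list was tested as a set.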

Additional observations from a re-analysis of the deposited data

How the results depend on the processing

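No paired analysis was possible because the exercise and sedentary libraries share no replicate number. Leaving out 1 library at a time, the difference in gated share ran from -4.94 to -2.05 percentage points, that in median UMIs per gated cell from -6628 to -1274, the genes called in gated cells from 0 to 1, and those called in whole tumours from 0 to 0. The 1 gene was called without exercise replicate 8; it is Ccl21a under 1 of its identifiers (edgeR adjusted p = 0.0279, higher in exercise), is named here after its value was seen, and the cause was not tested. DESeq2 called 23 genes in whole tumours, 8 higher and 15 lower in exercise, against 0 by edgeR, and the cause was not tested. The Pecam1 log2 fold change in whole tumours ran from -0.34 to 0.49 when libraries were left out; it was -0.34 without exercise replicate 5, -0.16 without sedentary replicate 1 and -0.06 without sedentary replicate 3. The count of genes in gated cells at an unadjusted p below 0.05 was 503 with no filter on low counts, 490 without exercise replicate 5 and 568 without exercise replicate 8, against 238. The gated share, made up mostly of Cdh5-only cells, had differences between -3.78 and -0.03 points of kept cells under the alternative gates tried. The -0.03 points came from requiring UMIs of at least 2 of the 4 gate genes, a gate that holds no Cdh5-only cell. Core-rich cells were 0.0978%, 0.0527% and 0.0298% of kept cells in exercise replicates 5, 6 and 8. They were 0.0252%, 0.0417% and 0.0525% in sedentary replicates 1, 2 and 3, and the groups overlapped. The 26 core-rich cells held 158163 UMIs, so a gene with no UMI there may have a level of up to 19.0 CPM (3 UMIs).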
